A study of Mus musculus with 12 samples.

Results

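The genes described here encode the machinery of DNA replication and cell division, and they were chosen by name as 16 S phase genes, 4 G1 cyclin genes and 22 mitotic genes. A gene was measured when the array had a probe set annotated to that symbol alone, the brightest one was used where there were several, and its intensity had to exceed 50 on at least 1 array. By this rule 41 of the 42 listed genes were measured, out of 11934 genes in all. Ccnb1, a mitotic cyclin gene, had no probe set with a single symbol and was not analysed here. Close to the threshold, Gins1 had a highest intensity of 54.6 and Ccne1 and Foxm1 had highest intensities of 86.6 and 86.8, and no measured gene of the list fell below it.

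Epithelial cells of the small intestine are renewed from the crypts. Stem cells and transit-amplifying cells divide there, and their daughters leave the cycle as they differentiate and move onto the villus, so transcripts of replication and mitosis genes come mainly from crypt cells. D-type and E-type cyclins act in G1 and at entry into S phase. Origins of replication are licensed before S phase, when Cdc6 and Cdt1 load the MCM helicase, which Cdc45 and the GINS complex then activate, while ribonucleotide reductase, thymidylate synthase and thymidine kinase supply nucleotides. Mitotic genes encode cyclins, kinases, kinesins, condensin and kinetochore proteins, and their transcription peaks later, in G2 and M phase.

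The RNA was isolated from mucosal and submucosal scrapings taken at 3 positions along the small intestine (proximal, middle, distal) of male mice of the strain C57BL/6J. The mice were young (4 months) or old (21 months) and had been fed for 2 weeks with a diet in which fat supplied 10% (low-fat) or 45% (high-fat) of the energy, and the labels name neither a transgene nor a drug for any group. RNA of 6 young or 8 old mice was pooled before hybridisation, and each of the 12 combinations of segment, age and diet was measured on 1 array. The 3 segments of 1 age and diet came from the same mice, so the arrays represent 4 pools. The 4 pools serve as repeats for differences between segments. For age and diet only 2 pools stand on each side, the spread between single animals was not measured, and in a pooled scraping fewer dividing cells and less RNA per dividing cell cannot be told apart. All levels below are RMA log2 values, differences are log2 differences, and levels are not compared between genes because each has its own probes. Errors of differences are standard errors (SE) by limma, which between segments are taken over the 4 pools. For age and diet they rest on how far the age difference departs between the diets, as no pool was repeated. Adjusted p-values are those of limma after Benjamini-Hochberg adjustment over all 11934 genes. Values on several arrays are given in the order young low-fat, young high-fat, old low-fat, old high-fat.

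The median log2 value of the 12 arrays lay between 5.57 and 5.70 over all probe sets. Villus enterocyte genes, which mark the tissue, were measured for 18 of 18 listed. The 14 pancreatic acinar genes found on the array were left out. The distal array of the old high-fat pool stood apart: 35 of the 41 genes (85.4%) were lowest of the 4 distal arrays there, against 36.5% of all genes tested. The exceptions were Cdc6, Gins1, Ccnd1, Ccne1, Birc5 and Foxm1. On the same array all 9 Paneth cell genes and all 10 B cell and germinal centre genes were also lowest of the 4, as were 10 of 13 smooth muscle genes, and 14 of 18 villus enterocyte genes were highest. Counts of the segment comparisons that use this array are given with and without it. Leaving it out was chosen after seeing the data, from levels of these same genes, so values without it are descriptive.

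**Figure D1:**
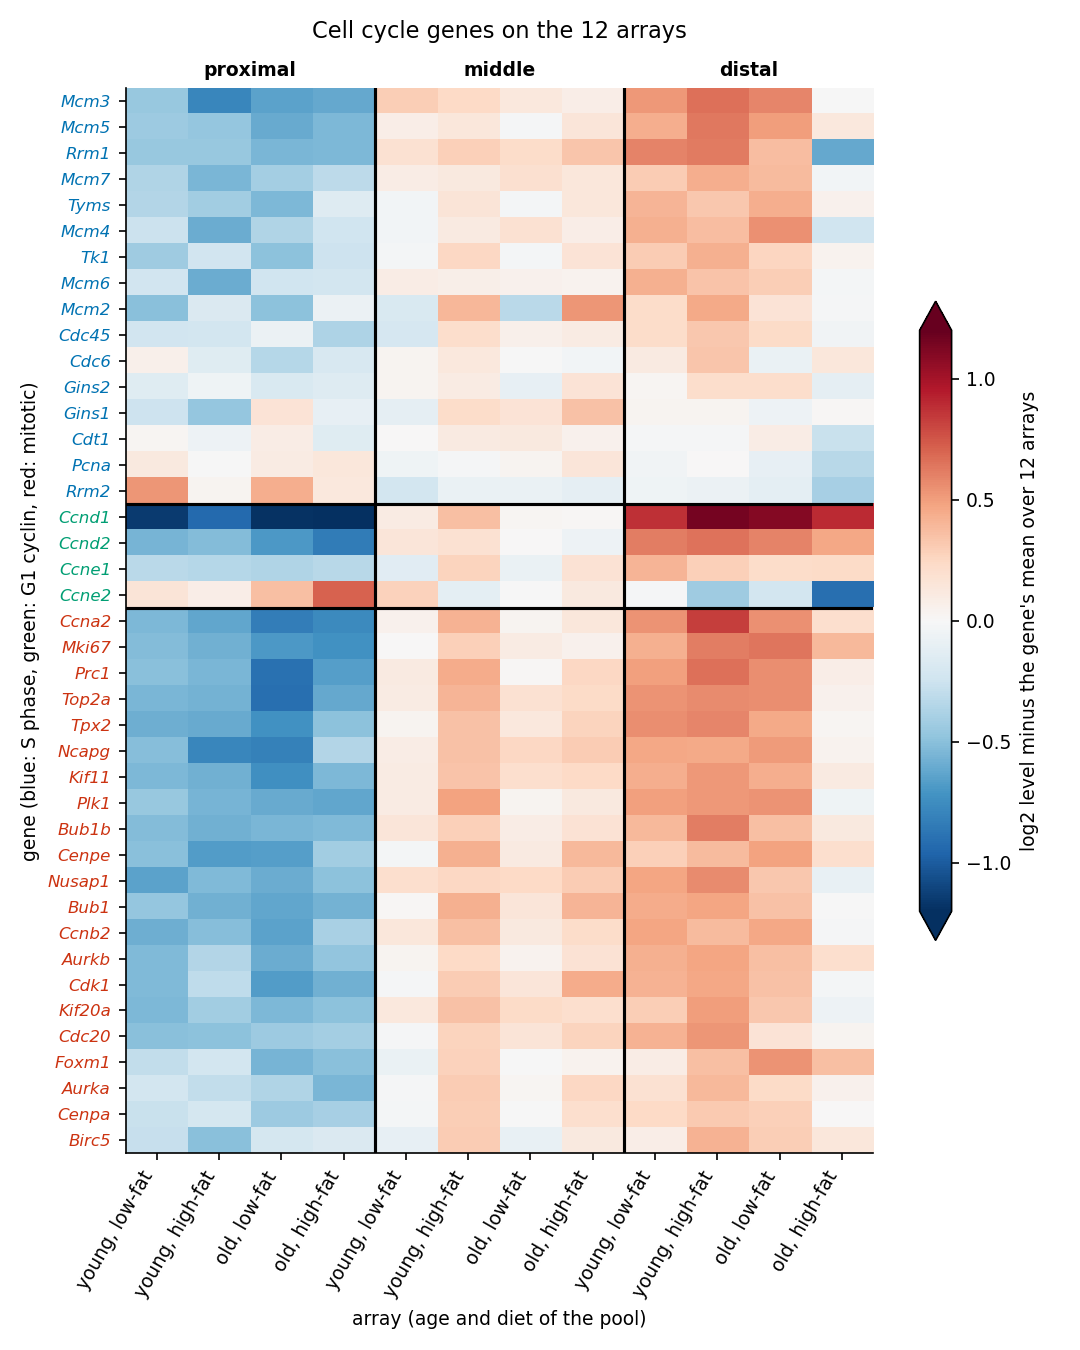
Colour gives the log2 level minus the gene's own mean over the 12 arrays, with the 41 genes in rows (S phase genes on top, G1 cyclin genes in the middle, mitotic genes below) and the arrays in columns by segment. The 21 mitotic genes are below their mean on all proximal arrays, Rrm2 and Ccne2 run the other way, and the distal array of the old high-fat pool is paler for most genes than the other distal arrays.

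Promoter sequences of both classes are shown because replication and mitotic genes are known for different promoter elements, and because the classes differed in size of response below. Whether these elements bear on the size of response was not tested. Sequences are from RefSeq (GRCm38.p6) and windows ran from 250 bases before to 50 bases after the start site. A window was found for 30 of the 41 genes and was lacking for Aurkb, Ccna2, Ccnd1, Ccnd2, Ccne2, Foxm1, Gins1, Gins2, Kif20a, Mcm4 and Tpx2. The letters searched on both strands were TTTGAA and TTCGAA for the cell cycle genes homology region (CHR), CCAAT for the CCAAT box, and TTTCCCGC, TTTGGCGC, TTTCGCGC, TTTGCCGC, GGCGGGAA and GCGGGAAA for the E2F element, of which the first and the last are each other's reverse complement. Overlapping E2F matches counted once per promoter. Capitals mark the matches in the 120 bases before the start site, given 5′ to 3′ on the strand of the gene. First come 4 mitotic genes, then 3 S phase genes that were higher distally and Rrm2, which was lower.
Cdc20, chr4:118437344-118437463, minus strand: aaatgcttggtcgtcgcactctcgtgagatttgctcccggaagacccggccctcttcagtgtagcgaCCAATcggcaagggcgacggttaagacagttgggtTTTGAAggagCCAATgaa
Kif11, chr19:37376262-37376381, plus strand: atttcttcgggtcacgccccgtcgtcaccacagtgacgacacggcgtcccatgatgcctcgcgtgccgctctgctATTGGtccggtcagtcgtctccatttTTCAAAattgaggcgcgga
Cdk1, chr10:69352913-69353032, minus strand: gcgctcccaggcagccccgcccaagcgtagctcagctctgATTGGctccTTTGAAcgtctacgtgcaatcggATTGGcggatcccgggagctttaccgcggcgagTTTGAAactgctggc
Top2a, chr11:99024190-99024309, minus strand: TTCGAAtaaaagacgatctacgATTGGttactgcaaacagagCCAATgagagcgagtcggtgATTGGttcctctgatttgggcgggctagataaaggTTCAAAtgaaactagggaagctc
Mcm6, chr1:128359706-128359825, minus strand: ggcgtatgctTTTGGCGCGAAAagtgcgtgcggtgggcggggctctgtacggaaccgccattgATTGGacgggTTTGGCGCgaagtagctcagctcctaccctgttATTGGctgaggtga
Rrm1, chr7:102441575-102441694, plus strand: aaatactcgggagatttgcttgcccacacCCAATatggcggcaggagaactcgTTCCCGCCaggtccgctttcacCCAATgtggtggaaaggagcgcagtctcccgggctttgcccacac
Mcm2, chr6:88898781-88898900, minus strand: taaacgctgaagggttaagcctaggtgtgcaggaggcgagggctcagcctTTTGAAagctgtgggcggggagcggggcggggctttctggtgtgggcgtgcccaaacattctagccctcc
Rrm2, chr12:24708134-24708253, plus strand: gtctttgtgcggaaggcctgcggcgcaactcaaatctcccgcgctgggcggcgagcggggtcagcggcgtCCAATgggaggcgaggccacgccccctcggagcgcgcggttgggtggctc

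CHR letters stood in the windows of 13 of 16 mitotic genes (81.2%) and of 3 of 13 S phase genes (23.1%), against 19.2% of all 32851 windows. In all 13 mitotic genes they were accompanied by a CCAAT box, a combination found in 7.52% of all windows. E2F letters showed the opposite distribution, with 7 of 13 S phase genes (53.8%), 2 of 16 mitotic genes (12.5%) and 3.89% of all windows. CCAAT, with or without the other letters, was common to both classes, in 14 of 16 mitotic (87.5%) and 9 of 13 S phase genes (69.2%), and stood in 37.4% of all windows. A gene with 2 windows counted when either held the letters, and a match describes letters, not bound sites. The S phase genes Rrm2, Tyms, Tk1 and Pcna had neither CHR nor E2F letters in these windows. The same held for the mitotic genes Birc5, Nusap1 and Cenpe and for Ccne1.

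Between the proximal and the distal segment, most replication and division genes rose. Of the 41 genes, 36 were higher in the distal segment by limma (adjusted p under 0.05), where 27.3% of all genes were higher, and 2 were lower, where 27.5% of all genes were lower. The median difference of the 41 genes was 0.75, against 0.02 over all genes tested. All 21 mitotic genes were higher, by 0.52 to 1.22. Of the S phase genes 12 of 16 were higher and only Rrm2 was lower, and of the G1 cyclin genes Ccnd1, Ccnd2 and Ccne1 were higher and Ccne2 was lower. On 32 of the 41 genes all 4 distal arrays lay above all 4 proximal arrays, and on 2 they lay below, against 22.9% and 23.9% of all genes. Without the distal array of the old high-fat pool the counts were again 36 higher and 2 lower, and the median was 0.87.

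**Figure D2:**
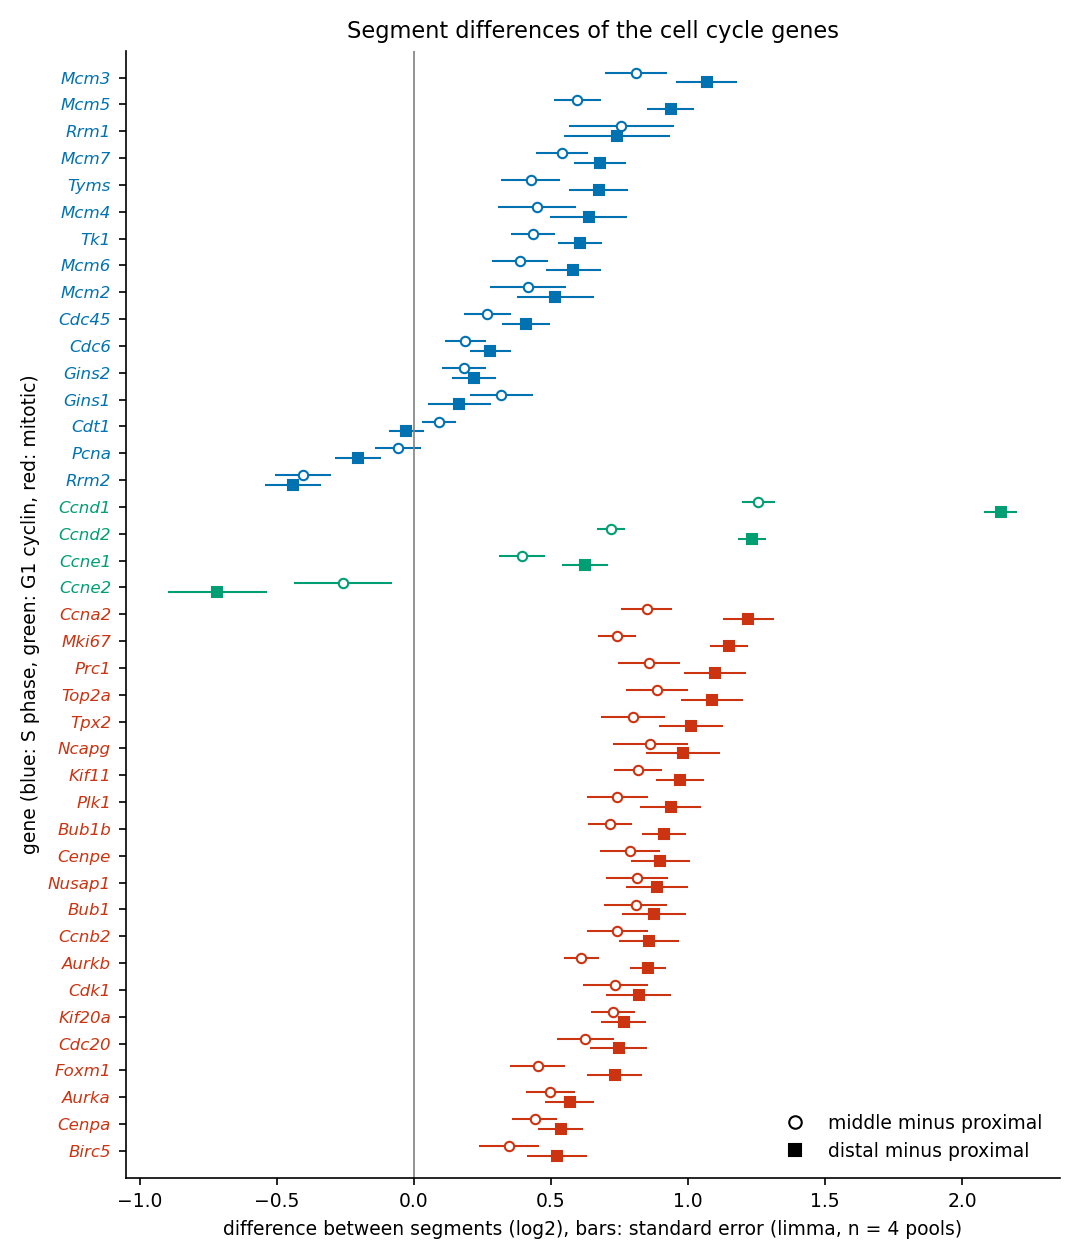
Points give the difference of the middle (open circles) and of the distal segment (filled squares) from the proximal segment for each gene on a log2 scale, and bars give the standard error over 4 pools. Mitotic genes all lie to the right of 0, with Ccna2 farthest at 1.22, Ccnd1 reaches 2.14, and Rrm2 and Ccne2 lie to the left.

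The G1 cyclins spanned the widest range. Ccnd1, cyclin D1, which activates Cdk4 and Cdk6 in G1, measured 7.21, 7.43, 7.17 and 7.09 on the proximal arrays, 8.45, 8.72, 8.38 and 8.37 on the middle arrays and 9.24, 9.51, 9.46 and 9.26 on the distal arrays. It rose at each step, and no arrays of neighbouring segments overlapped. By limma the distal segment exceeded the proximal by 2.14 ± 0.06 (adjusted p = 4.41e-09), the largest difference among the 41 genes. Ccnd2, cyclin D2, a second D-type cyclin, measured 9.88, 9.91, 9.74 and 9.59 on the proximal arrays, 10.58, 10.61, 10.44 and 10.37 on the middle arrays and 11.05, 11.09, 11.03 and 10.89 on the distal arrays. Its 3 segments did not overlap either, and the difference between distal and proximal was 1.23 ± 0.05 (adjusted p = 3.49e-08).

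The E-type cyclins, which activate Cdk2 at the start of S phase, went apart. Ccne1 lay between 5.67 and 5.71 on the proximal arrays and between 6.25 and 6.44 on the distal arrays, a difference of 0.62 ± 0.08 (adjusted p = 1.25e-04). Ccne2 measured 6.71, 6.63, 6.91 and 7.26 on the proximal arrays, 6.83, 6.43, 6.55 and 6.67 on the middle arrays and 6.53, 6.12, 6.33 and 5.65 on the distal arrays. All its proximal values lay above all its distal values, and the difference was −0.72 ± 0.18 (adjusted p = 0.00653). Without the distal array of the old high-fat pool, where Ccne2 had its lowest value, the difference was −0.48 ± 0.11 (adjusted p = 0.00511).

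Among the mitotic genes, the cyclin gene Ccna2, needed in S phase and for entry into mitosis, changed most. It measured 7.55, 7.46, 7.25 and 7.32 on the proximal arrays, 8.13, 8.50, 8.12 and 8.22 on the middle arrays and 8.63, 8.92, 8.64 and 8.29 on the distal arrays. Proximal values were the lowest 4, and the distal array of the old high-fat pool fell among the middle values. The difference between distal and proximal was 1.22 ± 0.09 (adjusted p = 2.51e-06). Mki67, which coats mitotic chromosomes and is the usual marker of proliferation, measured 7.99, 7.94, 7.82 and 7.79 on the proximal arrays, 8.52, 8.80, 8.62 and 8.57 on the middle arrays and 8.94, 9.13, 9.16 and 8.91 on the distal arrays. Here the 3 segments did not overlap, and the difference was 1.15 ± 0.07 (adjusted p = 4.77e-07).

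Prc1, which bundles microtubules of the central spindle, measured 6.20, 6.14, 5.80 and 6.03 on the proximal arrays, 6.80, 7.14, 6.71 and 6.95 on the middle arrays and 7.18, 7.35, 7.25 and 6.77 on the distal arrays. Its proximal arrays were the 4 lowest, and distal exceeded proximal by 1.10 ± 0.11 (adjusted p = 2.05e-05). Top2a, the topoisomerase that untangles sister chromatids and whose promoter is shown above, measured 8.06, 8.04, 7.70 and 7.99 on the proximal arrays, 8.70, 9.01, 8.79 and 8.83 on the middle arrays and 9.14, 9.17, 9.16 and 8.66 on the distal arrays. Proximal values were again the 4 lowest, with a difference of 1.09 ± 0.11 (adjusted p = 2.23e-05). A second Top2a probe set never exceeded an intensity of 9.13 and was not used.

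The smallest mitotic difference was that of Birc5, survivin, a subunit of the chromosomal passenger complex. Birc5 measured 6.21, 5.99, 6.28 and 6.32 on the proximal arrays, 6.39, 6.80, 6.40 and 6.60 on the middle arrays and 6.57, 6.91, 6.78 and 6.62 on the distal arrays. All distal values lay above all proximal values, with a difference of 0.52 ± 0.11 (adjusted p = 0.00233). The other mitotic genes fell between these bounds. The spindle checkpoint kinase gene Bub1 ranged over the 12 arrays from 6.03 to 7.13 and its partner Bub1b from 6.77 to 7.96, and they were higher distally by 0.87 ± 0.12 and 0.91 ± 0.08. Cdc20, which activates the anaphase-promoting complex, ranged from 6.82 to 7.85, and Tpx2, which nucleates spindle microtubules, from 6.11 to 7.43, with differences of 0.75 ± 0.10 and 1.01 ± 0.12. Cenpa, the histone variant of centromeres, ranged from 7.28 to 8.02 and was higher by 0.54 ± 0.08.

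S phase genes were more divided. Mcm3, a subunit of the replicative MCM helicase, had the largest difference. It measured 6.30, 5.96, 6.11 and 6.14 on the proximal arrays, 7.05, 6.99, 6.88 and 6.83 on the middle arrays and 7.27, 7.42, 7.34 and 6.75 on the distal arrays. Every proximal value was below every other value, and the difference between distal and proximal was 1.07 ± 0.11 (adjusted p = 2.36e-05). Mcm5, another subunit, measured 6.93, 6.91, 6.77 and 6.83 on the proximal arrays, 7.45, 7.51, 7.36 and 7.51 on the middle arrays and 7.81, 8.01, 7.88 and 7.50 on the distal arrays and was higher distally by 0.94 ± 0.09 (adjusted p = 8.87e-06). The 4 proximal values were the lowest, and the distal value of the old high-fat pool fell among the middle values. The remaining helicase genes were higher as well, Mcm7 (6.98 to 7.97 over the 12 arrays) by 0.68 ± 0.10, Mcm4 by 0.64 ± 0.14, Mcm6 (7.44 to 8.46) by 0.58 ± 0.10 and Mcm2 by 0.51 ± 0.14. Mcm2 lost its call without the young low-fat pool (0.45, adjusted p = 0.0549) and without the young high-fat pool (0.48, adjusted p = 0.0584). Without the distal array of the old high-fat pool its difference was 0.70 ± 0.09 (adjusted p = 1.55e-04), and that of Mcm4 was 0.83 ± 0.08 (adjusted p = 3.39e-05).

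The subunits of ribonucleotide reductase moved in opposite directions. Rrm1, the large subunit, measured 8.09, 8.08, 8.00 and 8.01 on the proximal arrays, 8.73, 8.83, 8.77 and 8.88 on the middle arrays and 9.14, 9.16, 8.92 and 7.92 on the distal arrays. Middle and distal values were above the proximal ones, apart from the distal array of the old high-fat pool, which was the lowest of all 12. With this array the distal difference was 0.74 ± 0.19 (adjusted p = 0.00808), and without it 1.03 ± 0.06 (adjusted p = 1.78e-06). Rrm1 lost its call without the young high-fat pool (0.63, adjusted p = 0.0566) and without the old low-fat pool (0.68, adjusted p = 0.0514). Rrm2, the small subunit, measured 8.11, 7.60, 8.01 and 7.70 on the proximal arrays, 7.35, 7.49, 7.49 and 7.46 on the middle arrays and 7.52, 7.50, 7.46 and 7.17 on the distal arrays. Its proximal values were the 4 highest, and distal was lower than proximal, with a difference of −0.44 ± 0.10 (adjusted p = 0.00422).

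Of the other nucleotide enzymes, Tyms, thymidylate synthase, ranged from 6.41 to 7.38 and Tk1, thymidine kinase 1, from 6.65 to 7.56, and both were higher distally, by 0.67 ± 0.11 and 0.60 ± 0.08. The value of Tk1 is less certain, as a second, dimmer Tk1 probe set gave a difference of 0.50. Which copy of the gene each of these probe sets reads is uncertain. Cdc45, which joins the MCM helicase when origins fire, ranged from 6.35 to 7.05 and was higher by 0.41 ± 0.09. The licensing factor Cdc6 and the GINS subunit Gins2 (6.46 to 6.85) were higher by 0.28 ± 0.07 and 0.22 ± 0.08. Cdc6 lost its call without the young high-fat pool (adjusted p = 0.076), and Gins2 when any 1 of the young low-fat, young high-fat and old low-fat pools was left out (adjusted p of 0.0937 to 0.149).

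The other 3 S phase genes did not pass. Cdt1, the licensing factor that is degraded as S phase starts, ranged from 7.40 to 7.78 and differed by −0.03 ± 0.06 (adjusted p = 0.734). Gins1, the dimmest gene of the list, differed by 0.17 ± 0.12 (adjusted p = 0.25). Pcna, the sliding clamp of DNA polymerase, ranged from 9.87 to 10.35 and differed by −0.20 ± 0.08 (adjusted p = 0.0602). Without the young high-fat pool Pcna passed as lower, at −0.27 with an adjusted p of 0.0462. A second Pcna probe set gave the same difference to 2 decimals, −0.20. Both probe sets had nearly the same level, so which copy of the gene they read is uncertain.

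The rise was largely present in the middle segment. Of the 41 genes 33 were higher there than in the proximal segment, where 14.0% of all genes were higher, and Rrm2 alone was lower, where 11.0% of all genes were lower. The median difference of the 41 genes was 0.61, against 0.01 over all genes. All 21 mitotic genes were higher, from 0.35 for Birc5 to 0.89 for Top2a, with a median of 0.74. Birc5 lost its call whichever pool was left out (adjusted p of 0.0686 to 0.161). For S phase genes the count was 9 of 16 higher and the median 0.40. The count was 4 without the young high-fat pool and 5 without the old low-fat pool, and in both cases Cdc45, Mcm4, Mcm6, Rrm1 and Tyms lost their call.

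Ccnd1 had the largest difference, 1.26 ± 0.06 (adjusted p = 9.45e-07), followed by Top2a, Ncapg, Prc1, Ccna2 and Kif11. Ncapg, a condensin subunit, measured 6.51, 6.24, 6.21 and 6.67 on the proximal arrays, 7.11, 7.37, 7.27 and 7.33 on the middle arrays and 7.49, 7.48, 7.53 and 7.06 on the distal arrays. The proximal value of the old high-fat pool was the highest of its segment, but all middle values lay above it, and the difference was 0.86 ± 0.14 (adjusted p = 0.00129). Kif11, the kinesin that separates spindle poles, measured 6.77, 6.74, 6.58 and 6.77 on the proximal arrays, 7.41, 7.65, 7.51 and 7.55 on the middle arrays and 7.74, 7.83, 7.75 and 7.42 on the distal arrays. Middle and proximal arrays did not overlap, with a difference of 0.82 ± 0.09 (adjusted p = 1.28e-04). Among the S phase genes the difference ran from −0.41 ± 0.10 (adjusted p = 0.0166) for Rrm2 to 0.81 ± 0.11 (adjusted p = 6.26e-04) for Mcm3. Rrm2 lost its call without the young low-fat pool and without the old low-fat pool, and kept its sign.

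From the middle to the distal segment the change was small. Of the 41 genes 6 were higher distally, where 14.6% of all genes were higher, and 0 were lower, where 20.0% of all genes were lower. At an unadjusted p under 0.05 by limma there were 12 genes, a count that was not set against all genes. Ccnd1 rose by 0.88 ± 0.06 (adjusted p = 4.69e-06), Ccnd2 by 0.51 ± 0.05 (adjusted p = 4.24e-05) and Mki67 by 0.41 ± 0.07 (adjusted p = 0.00135). Ccna2, Mcm5 and Aurkb rose by 0.37 ± 0.09, 0.34 ± 0.09 and 0.24 ± 0.06, and without the distal array of the old high-fat pool by 0.47 ± 0.08 (adjusted p = 0.0022), 0.44 ± 0.06 (adjusted p = 5.83e-04) and 0.31 ± 0.05 (adjusted p = 0.00178). Mcm5 and Aurkb lost their calls when any 1 of the other 3 pools was left out, and Ccna2 without the old low-fat pool.

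Aurkb, the kinase of the chromosomal passenger complex, measured 6.62, 6.79, 6.55 and 6.67 on the proximal arrays, 7.18, 7.39, 7.19 and 7.32 on the middle arrays and 7.58, 7.62, 7.51 and 7.35 on the distal arrays. Its distal arrays lay above the middle arrays apart from the old high-fat pool. The smallest mitotic difference was that of Kif20a, a kinesin of cytokinesis, which measured 6.17, 6.28, 6.16 and 6.21 on the proximal arrays, 6.83, 7.06, 6.94 and 6.90 on the middle arrays and 7.0, 7.21, 7.03 and 6.65 on the distal arrays and differed by 0.04 ± 0.08 (adjusted p = 0.737). Gins1 had the lowest S phase value. It measured 5.18, 4.96, 5.59 and 5.32 on the proximal arrays, 5.32, 5.64, 5.59 and 5.77 on the middle arrays and 5.45, 5.46, 5.37 and 5.44 on the distal arrays and differed by −0.15 ± 0.12 (adjusted p = 0.327), and its distal values all lay within the range of the middle ones.

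This step depended on 1 array, which was singled out after seeing the data by its low levels of these same genes. Leaving it out raises the distal levels by construction, so the counts and p-values without it are no independent evidence of a rise. When the distal array of the old high-fat pool was left out, 24 of the 41 genes were higher distally, 9 of 16 S phase and 12 of 21 mitotic genes among them, against 15.7% of all genes. The median of the 41 genes was then 0.26 in place of 0.14. Without the whole old high-fat pool there were 23 higher genes, and without the old low-fat pool 3. Tpx2 for example differed by 0.37 ± 0.07 (adjusted p = 0.0027) and Tk1 by 0.27 ± 0.05 (adjusted p = 0.00295) in the absence of that array.

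S phase and mitotic genes were then set against each other within each pool. For each array the median over the genes of a class was taken, after the mean of each gene over the 12 arrays had been subtracted. On the proximal arrays the S phase median was −0.25, −0.33, −0.35 and −0.20 and the mitotic median −0.52, −0.55, −0.63 and −0.50. The distal arrays had 0.26, 0.34, 0.24 and −0.03 for S phase and 0.43, 0.51, 0.43 and 0.05 for mitotic genes. Hence from proximal to distal the S phase median rose by 0.49 ± 0.21 (SD, n = 4 pools) and the mitotic median by 0.90 ± 0.24. The difference of these changes was −0.42 ± 0.04, from −0.47 to −0.37, and it was below 0 in 4 of 4 pools. From proximal to middle it was −0.37 ± 0.06, again in 4 of 4 pools, and from middle to distal −0.05 ± 0.09, in 2 of 4. The old high-fat pool had the smallest changes of both classes and a difference between them of −0.37, against −0.47 to −0.40 in the other pools. No p is given, because the genes were chosen with earlier results known.

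**Figure D3:**
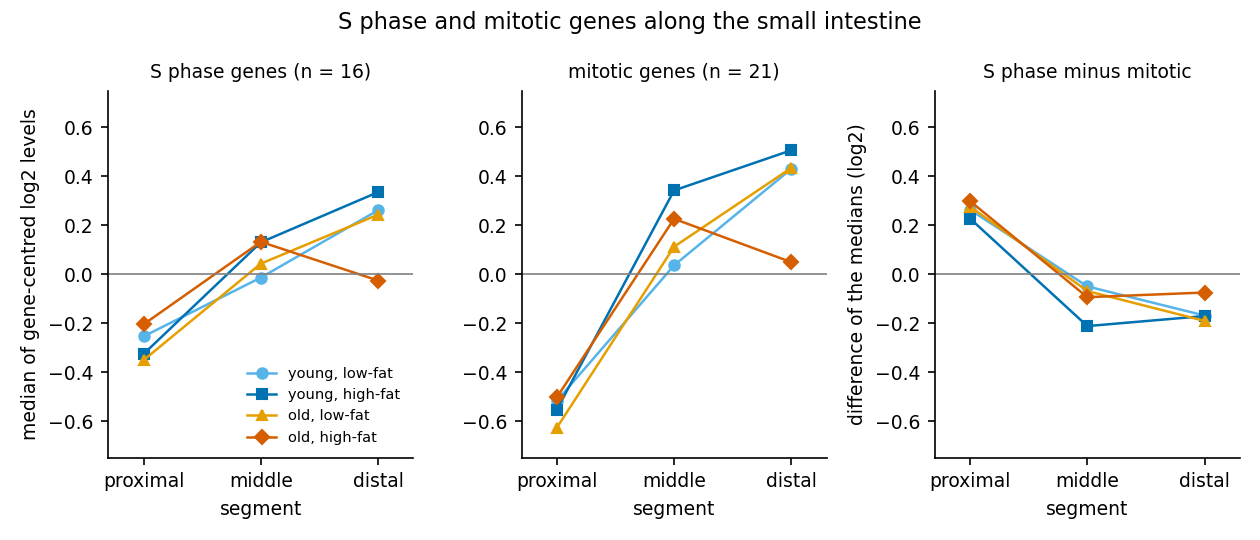
Lines follow the 4 pools from the proximal to the distal segment, with the median gene-centred log2 level of the 16 S phase genes on the left, of the 21 mitotic genes in the centre and the difference of both medians on the right. Mitotic medians start lower (−0.63 to −0.50) and end higher (0.05 to 0.51) than the S phase medians (−0.03 to 0.34), so the right panel falls from 0.23 to 0.30 in the proximal to −0.19 to −0.08 in the distal segment, and the distal point of the old high-fat pool lies apart in the left and centre panels.

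The level of each gene over the 12 arrays was then correlated with the median level of the mitotic genes, leaving a mitotic gene's own values out of that median. For the mitotic genes Pearson's r ran from 0.872 (Foxm1) to 0.997 (Tpx2), and 19 of 21 had an r over 0.9. Of the 16 S phase genes 6 passed that value against the same mitotic median, led by Mcm5 at 0.972, and the others reached down to 0.212 for Cdt1, −0.375 for Pcna and −0.671 for Rrm2. Ccne2 had an r of −0.561. Over all genes tested, 4.88% had an r over 0.9. These correlations describe 12 arrays that share segments and pools.

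Other genes of the same machinery followed the 41 between the proximal and distal segments, where 27.3% of all genes were higher and 27.5% lower. Of 54 further mitotic genes 53 were higher distally and none was lower, with a median of 0.79, led by Kif23 (1.28) and Racgap1 (1.13), which act in cytokinesis, Melk (1.12) and Anln (1.06). Of 35 further replication genes 27 were higher, with a median of 0.59. The largest differences were those of Uhrf1 (1.01) and Dnmt1 (1.00), which maintain DNA methylation, Pole (0.96), the catalytic subunit of DNA polymerase epsilon, and Chaf1b (0.95), a histone chaperone. Gmnn, which inhibits Cdt1, was the 1 lower gene of that list (−0.26). In the middle segment 51 of the 54 mitotic and 25 of the 35 replication genes already exceeded the proximal segment, and from middle to distal 10 and 11 rose. Over all genes 14.0% and 14.6% were higher at these steps.

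Regulators were mixed. Of 21 cell cycle control genes 11 were higher distally and 3 lower, with Myc (1.26), E2f5 (0.82), Cdk2 (0.69) and Cdk6 (0.69) the largest differences, and Wee1 (−0.54), which restrains Cdk1, Rbl2 (−0.27) and E2f3 (−0.25) the lower genes. Of 12 cell cycle inhibitor genes 2 were higher and 4 lower, which is close to the shares of all genes. Cdkn2b, an inhibitor of Cdk4 and Cdk6, was higher by 0.98 and Tob1, Gadd45a and Cdkn1c were lower, with differences of −0.51, −0.47 and −0.41.

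Marker genes of other cell types moved between segments too. Between proximal and distal 27.3% of all genes were higher and 27.5% lower. Of 12 crypt stem cell genes 11 were higher distally and 1 lower, and their summed intensity was 2367 to 2503 proximally, 3906 to 4208 in the middle and 3780 to 5326 distally. Lgr5 and Olfm4, which define these cells, were higher by 0.91 and 1.16. Paneth cells share the crypt base, and 7 of 9 Paneth cell genes were higher and 1 lower, with sums of 10080 to 12887, 23280 to 25306 and 20980 to 31072. For villus enterocytes 4 of 18 genes were higher and 9 lower, and sums were 123167 to 124365, 120956 to 125807 and 93431 to 117017. Smooth muscle genes were higher in 12 of 13, with sums of 1291 to 2016, 1738 to 2704 and 2216 to 6220, and genes of B cells and of the germinal centre in 8 of 10, with sums of 604 to 654, 572 to 666 and 556 to 922. In that list Rgs13 was the 1 lower gene (−0.55). T cell and intraepithelial lymphocyte genes were lower in 7 of 11. The part of these cells in the differences of the 41 genes was not tested.

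Age was examined next, as the study compared old with young mice. None of the 41 genes passed the threshold in any segment by limma, where 0.109% (proximal), 0.0168% (middle) and 0.570% (distal) of all genes did so. In simulated data this fit found 0% of distal age differences of 0.3 and 7.46% of those of 0.5. Real differences of such size can therefore be missed. An unadjusted p under 0.05 by limma was reached by 3 genes proximally, by 1 in the middle and by 6 distally. Such unadjusted counts, here and for the pool means below, were not set against all genes and show no excess by themselves. In the distal segment 39 of 41 differences were below 0 with a median of −0.20, against 0.00 over all genes, while the medians were −0.02 in both other segments. Averaged over the 3 segments of each pool, 37 of 41 differences were below 0 with a median of −0.09, 10 had an unadjusted p under 0.05, and none passed, where 2.85% of all genes did. Averaged over the proximal and middle segments alone, 25 of 41 were below 0 with a median of −0.02.

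The smallest adjusted p in the distal segment was 0.129, for Cdc20 (−0.38 ± 0.09). Rrm1 had the lowest S phase difference there, −0.73 ± 0.20 (adjusted p = 0.158). The values of both old arrays (8.92 and 7.92) were below both young ones (9.14 and 9.16). When either distal low-fat array was left out, Rrm1 passed at −1.24 with an adjusted p of 0.0311 by limma. The value is then that of the high-fat pair, 1 array against 1 that stood apart, and the test takes its spread from the other segments and assumes that these arrays vary alike. Nusap1, which binds spindle microtubules, had the lowest mitotic difference. It measured 5.79, 5.91, 5.84 and 5.94 on the proximal arrays, 6.64, 6.68, 6.67 and 6.74 on the middle arrays and 6.91, 7.01, 6.76 and 6.35 on the distal arrays, so that both old distal arrays were below both young ones, and differed by −0.40 ± 0.12 (adjusted p = 0.167). Foxm1, the transcription factor of the mitotic program, was the highest. It measured 5.60, 5.68, 5.34 and 5.39 on the proximal arrays, 5.82, 6.17, 5.89 and 5.94 on the middle arrays and 5.99, 6.26, 6.44 and 6.25 on the distal arrays and differed by 0.22 ± 0.12 (adjusted p = 0.363), with 1 old array between the young ones.

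Elsewhere the extremes were small. In the proximal segment Gins1 had the highest S phase difference, 0.39 ± 0.07 (adjusted p = 0.135), with both old values above both young ones, and Cdc6 the lowest, −0.22 ± 0.10 (adjusted p = 0.581). Cdc6 measured 6.53, 6.33, 6.13 and 6.28 on the proximal arrays, 6.51, 6.60, 6.47 and 6.44 on the middle arrays and 6.58, 6.80, 6.39 and 6.61 on the distal arrays. Among mitotic genes Birc5 and Foxm1 marked the ends, at 0.20 ± 0.13 and −0.28 ± 0.12. In the middle segment S phase genes lay between −0.17 ± 0.17 for Mcm3 and 0.20 ± 0.07 for Gins1, and mitotic genes between −0.22 ± 0.15 for Plk1 and 0.15 ± 0.11 for Cdk1. Plk1, a kinase needed for spindle assembly and mitotic exit, measured 7.19, 7.09, 7.04 and 7.02 on the proximal arrays, 7.75, 8.13, 7.67 and 7.76 on the middle arrays and 8.14, 8.17, 8.19 and 7.59 on the distal arrays. Cdk1, the kinase that drives entry into mitosis, measured 7.17, 7.39, 7.03 and 7.12 on the proximal arrays, 7.67, 8.00, 7.83 and 8.13 on the middle arrays and 8.11, 8.16, 8.04 and 7.67 on the distal arrays. For the means of the pools the ends were −0.26 ± 0.08 for Rrm1 and 0.18 ± 0.05 for Gins1 among S phase genes, and −0.22 ± 0.07 for Ccna2 and 0.03 ± 0.05 for Cenpe among mitotic genes.

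Distal age values differed in size between the diets. On the high-fat diet all 41 genes were lower on the old than on the young distal array, with a median of −0.39 and a mitotic median of −0.48. The old array of this pair is the one that stood apart, on which 36.5% of all genes tested were lowest of the 4 distal arrays. The share of all genes that were lower in this pair was not set beside the count. On the low-fat diet 22 were higher and 19 lower, with a median of 0.01. With 1 array on each side these values have no spread of their own, and the difference between the diets was not tested. A difference over 2-fold was found for 1 gene, Rrm1 at −1.24 on the high-fat diet, where 0.553% of all genes passed 2-fold. In the other 11 comparisons of 2 arrays none of the 41 genes passed it, against 0.325% of all genes over those comparisons together. Of the further lists, none of 54 mitotic and 35 replication genes passed for age in any segment, and their distal medians were −0.19 and −0.13. The mitotic genes among the 41 ran from −0.66 for Nusap1 to −0.01 for Foxm1 on that diet.

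**Figure D4:**
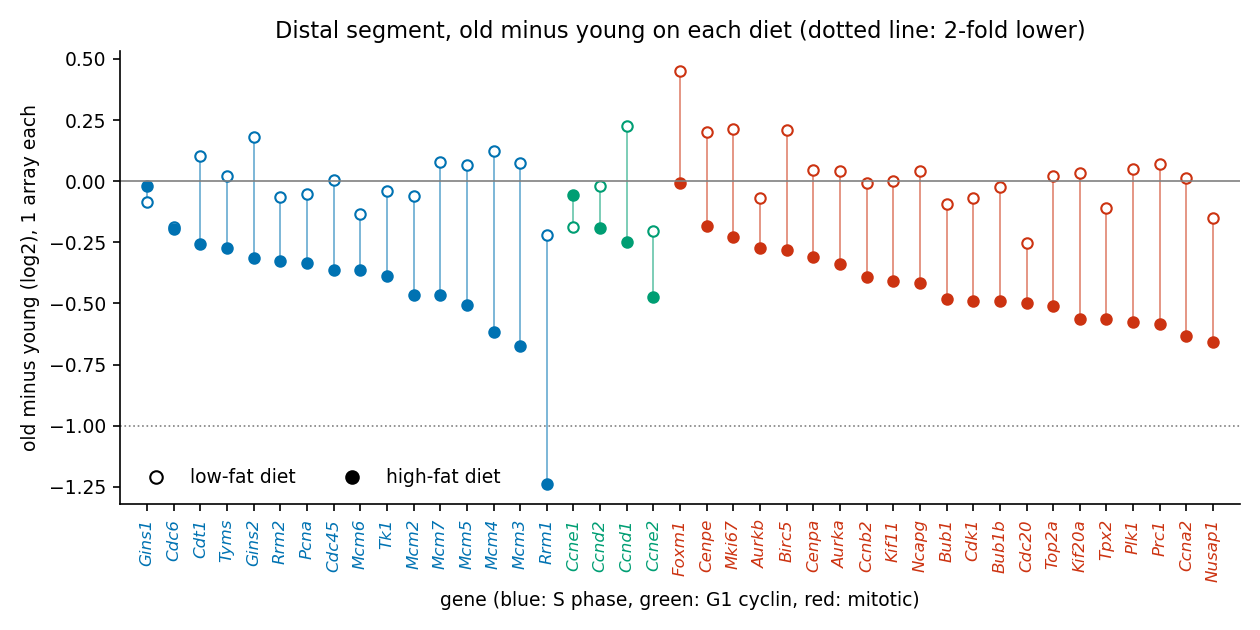
Each gene has an open point for the low-fat and a filled point for the high-fat diet, giving the log2 level of the old minus the young distal array (1 array each). Filled points are below 0 for all 41 genes and open points scatter around 0, and only Rrm1 at −1.24 lies below the dotted line of a 2-fold lower level.

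The old high-fat distal array enters this high-fat difference and also the diet difference of old mice in the same segment, where the high-fat array was the lower one for 38 of 41 genes, with a median of −0.32 and Rrm1 at −0.99. In young mice 33 of 41 were higher, with a median of 0.09. Neither count was set against all genes. On the same distal array the summed intensity of crypt stem cell genes was 3780, against 5068 to 5326 on the other distal arrays. Such a sum follows the brightest genes, and of these 12 genes 8 were lowest of the 4 there and 3 were highest. Paneth cell genes summed to 20980 against 28077 to 31072, B cell and germinal centre genes to 556 against 867 to 922, smooth muscle genes to 2216 against 3436 to 6220, and villus enterocyte genes to 117017 against 93431 to 106819. Goblet cell genes summed to 28340 against 26620 to 27022, with 3 of 6 genes lowest there and 3 highest. Whether these differences contributed to the lower levels of the 41 genes was not tested.

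A test of whether the age difference itself differed between segments called none of the 41 genes. The smallest adjusted p by limma was 0.409 for distal against middle, where Cdc20 had the most negative mitotic difference of age differences (−0.46 ± 0.12, SE) and Rrm1 the most negative of the S phase genes (−0.77 ± 0.28).

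For diet 1 of the 41 genes passed the threshold, no larger a share than among all genes. Mcm2, a subunit of the MCM helicase, was higher on the high-fat diet in the middle segment, by 0.72 ± 0.11 (adjusted p = 0.0273), where 2.53% of all genes passed in either direction. Mcm2 measured 6.91, 7.24, 6.92 and 7.35 on the proximal arrays, 7.24, 7.81, 7.09 and 7.94 on the middle arrays and 7.63, 7.87, 7.57 and 7.40 on the distal arrays. Both high-fat middle values (7.81 and 7.94) lay above both low-fat ones (7.24 and 7.09). In the mean of the 3 segments, which includes the same middle arrays, Mcm2 was the only gene of the 41 that passed. It differed by 0.37 ± 0.05 (adjusted p = 0.011), where 5.54% of all genes passed. That fit had 1 residual degree of freedom, and for age it made 24 false calls in simulated data. No gene passed in the proximal segment, where 0.318% of all genes did, or in the distal segment, where 0.520% did. With any 1 of the 4 middle arrays left out, which leaves 1 array against 1 and the spread of the other segments, Mcm2 lost its call, at differences of 0.58 or 0.85, and without the middle segment its pool mean difference was 0.20 with an adjusted p of 0.210 by limma.

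The 6 MCM helicase genes had different diet values. Mcm2 levels on the high-fat arrays were above the low-fat values in 5 of 6 pairs of arrays, the exception being the old distal pair (−0.17). Mcm6 was lower in 5 of 6 pairs and Mcm3 and Mcm4 in 4 of 6, and Mcm5 and Mcm7 were higher in 4 and 3 of 6. In the middle segment the 5 other helicase genes differed by −0.05 ± 0.17 (Mcm3), 0.02 ± 0.18 (Mcm4), 0.11 ± 0.13 (Mcm5), −0.01 ± 0.11 (Mcm6) and −0.01 ± 0.13 (Mcm7). The difference between Mcm2 and these genes was not tested. Mcm4, the lowest of the S phase class in the pool means at −0.17 ± 0.06, measured 6.61, 6.28, 6.51 and 6.63 on the proximal arrays, 6.84, 6.98, 7.05 and 6.95 on the middle arrays and 7.29, 7.24, 7.42 and 6.62 on the distal arrays.

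**Figure D5:**
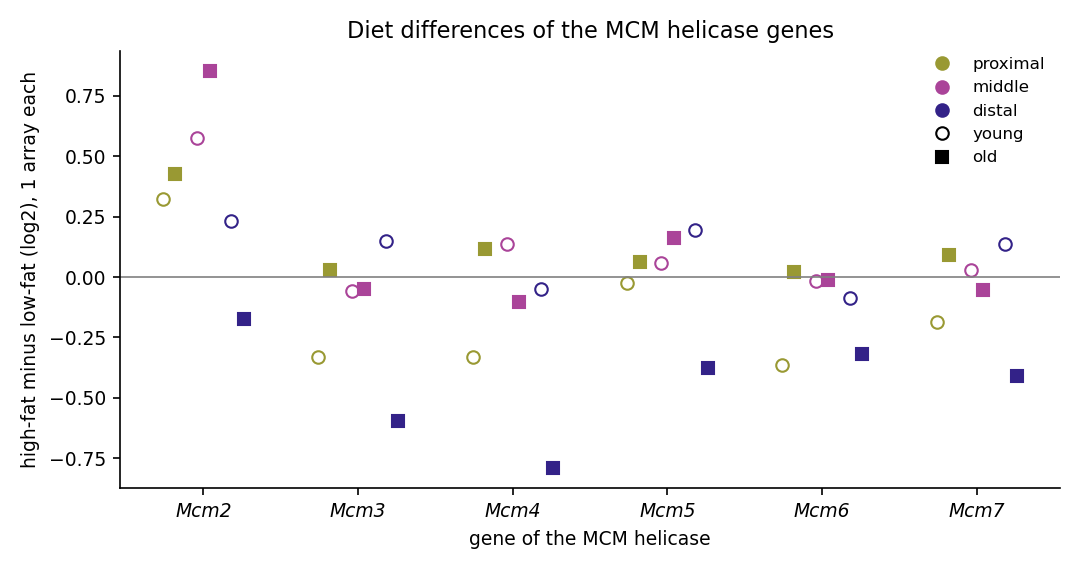
Points give the high-fat minus the low-fat log2 level (1 array each) of the 6 MCM helicase genes, coloured by segment, with open circles for young and filled squares for old mice. For Mcm2 5 of 6 points are above 0, up to 0.85 in the old middle segment, while the old distal square is the lowest point of every gene except Mcm6, whose lowest point is the young proximal circle.

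In the middle segment most other genes also had a positive diet difference, without passing. Of the 41 differences 36 were above 0, with a median of 0.17, and all 21 mitotic genes were above 0, with a median of 0.20 against 0.00 over all genes. An unadjusted p under 0.05 by limma was found for 10 of the 41 genes, a count that was not set against all genes. Cenpe, a kinetochore motor, had the largest mitotic value. It measured 6.10, 5.93, 5.93 and 6.18 on the proximal arrays, 6.58, 7.02, 6.71 and 6.99 on the middle arrays and 6.88, 6.98, 7.08 and 6.80 on the distal arrays and differed by 0.36 ± 0.13 (adjusted p = 0.201). The smallest was that of Nusap1, 0.05 ± 0.12. Of the 54 further mitotic genes 50 were above 0 with a median of 0.17, and none passed. In young mice the 21 mitotic genes were all higher on the high-fat middle array with a median of 0.32, and in old mice 19 were higher with a median of 0.10. Ccne1 differed by 0.33 ± 0.08 (adjusted p = 0.0801).

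Fewer differences were positive in the other segments. In the proximal segment 23 of 41 differences were above 0, with a median of 0.02, and in the distal segment 7 of 41, with a median of −0.10. Proximal S phase genes lay between −0.40 ± 0.10 (adjusted p = 0.174) for Rrm2 and 0.38 ± 0.11 (adjusted p = 0.29) for Mcm2. Proximal mitotic genes lay between Aurka and Ccnb2. Aurka, the centrosomal mitotic kinase, measured 6.96, 6.88, 6.82 and 6.63 on the proximal arrays, 7.17, 7.49, 7.20 and 7.43 on the middle arrays and 7.36, 7.56, 7.41 and 7.22 on the distal arrays and differed by −0.14 ± 0.10. Ccnb2, a B-type cyclin, measured 7.49, 7.57, 7.43 and 7.68 on the proximal arrays, 8.21, 8.44, 8.20 and 8.29 on the middle arrays and 8.55, 8.45, 8.54 and 8.06 on the distal arrays and differed by 0.17 ± 0.11. In the distal segment Ccnb2 and Rrm1 were the lowest of their classes, at −0.29 ± 0.11 and −0.48 ± 0.20, and Birc5 and Cdc6 the highest, at 0.09 ± 0.13 and 0.22 ± 0.10. When either young distal array was left out Rrm1 passed, at −0.99 with an adjusted p of 0.0293, which is again 1 array against the array that stood apart, with the spread of the other segments. In the pool means mitotic genes lay between −0.04 ± 0.07 for Plk1 and 0.10 ± 0.07 for Foxm1. The diet difference itself differed between segments for none of the 41 genes, with a smallest adjusted p by limma of 0.226 for distal against middle, that of Mcm2 (−0.69 ± 0.16, SE).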

How the data were processed

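RNA of 4 pools at 3 segments was hybridised to Affymetrix Mouse Gene 1.0 ST arrays. The deposited log2 values had been summarised and normalised by the authors with RMA (version not given in the sources used here). They refer to transcript clusters, whereas the study's methods describe gene-based probe sets. Of 35556 probe sets 21789 had 1 gene symbol, 1621 several and 12146 none. The brightest probe set per gene was kept if its intensity exceeded 50 on at least 1 array, and 14 pancreatic acinar genes were removed. Differences were fitted in R 4.3.3 with limma 3.58.1 over all 11934 genes. Segments were compared with the pool as a block, since the labels give the same mice for the 3 segments of a pool. Age and diet were compared within segments, and over the mean of each pool. For segments, P-values measure the spread of the segment difference between pools. For age and diet no pool was repeated, so the spread is how far the age difference departs between the diets. Within segments this spread was shared by the 3 segments, which were treated as independent although they came from the same mice. The number of arrays limits the precision. The fits were tested on simulated data of 11934 genes, in which some genes were changed by 0.3, 0.5 or 1. For distal minus proximal 34.3%, 88.1% and 98.5% of these changes were found, with 3 false calls. For old minus young in the distal segment 0%, 7.46% and 93.9% were found, with 6 false calls. For old minus young of the pool means 20.9%, 94% and 100% were found, with 24 false calls. The genes described, the other lists and the comparisons were chosen with earlier results of these data known. Genes named with values on every array were the extremes of each class in each comparison and those that passed in small numbers, and Ccne2 was added after its values were seen. Alternatives changed the filter, probe set, normalisation, variance model, block and samples. Class medians, promoter letters and plots were made with Python 3.11.15, numpy 2.4.6, pandas 2.3.3 and matplotlib 3.10.9.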

Additional observations from a re-analysis of the deposited data

Results flagged for a closer look

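For each gene and class median, the segment differences of the 4 pools were searched for 1 pool far from the other 3, and 9 of 132 such sets of 4 held one. Chance flags about 1 in 20 sets. In 6 of the 9 it was the old high-fat pool in a difference that uses its distal array.

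Between the middle and the distal segment, the S phase median changed by −0.16 in the old high-fat pool and by 0.20 to 0.27 in the others. Kif20a differed by −0.26 there, against 0.09 to 0.16, and Ccne2 by −1.02, against −0.31 to −0.22. Between the proximal and the distal segment the old high-fat pool gave −0.08 for Rrm1, against 0.92 to 1.08, 0.05 for Mcm2, against 0.63 to 0.72, and 0.52 for Tpx2, against 1.15 to 1.19.

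The other sets did not involve that array. Rrm2 differed between distal and proximal by −0.10 in the young high-fat pool and by −0.58 to −0.53 in the others. Between the middle and the proximal segment Mcm6 differed by 0.67 in the young high-fat pool, against 0.26 to 0.32, and Ccnd2 by 0.78 in the old high-fat pool, against 0.69 to 0.70. What set these pools apart was not tested.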

How the results depend on the processing

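No gene that passed with the settings described above reversed direction under any alternative that was run. Genes that had not passed could reverse. Rrm1 for example averaged 8.801 on the middle and 8.785 on the distal arrays. Without the distal array of the old high-fat pool it was higher distally by 0.28 (adjusted p = 0.00835 by limma). Without that whole pool the difference was 0.30 (adjusted p = 0.00873 by limma). Of the counts and class values, 278 stayed within their limits and 18 did not. Of the single-gene results that had passed, 982 kept and 49 lost their call. Fewer samples or another variance model gave the following counts of the 41 genes. Leaving out 1 pool gave 0 to 1 genes lower in the middle than in the proximal segment (1 with all pools) and 3 to 23 higher in the distal than in the middle segment (6 with all). Without the distal array of the old high-fat pool, an alternative chosen after seeing the data, the latter was 24. Leaving out 1 array gave 0 to 1 genes lower with age in the distal segment (Rrm1, without either low-fat array), 0 higher with the high-fat diet in the middle segment, and for that diet 0 to 1 lower distally (Rrm1, without either young array). In these fits 1 array stands against 1, and the lone arrays are assumed to vary like those of the other segments. Of the pool means, Ccnd2 alone was lower with age (1 gene) with an intensity trend and robust variance, Ccne2 alone was lower on the high-fat diet (1 gene) without the proximal segment, and 0 genes were higher on it without the middle segment. The S phase minus mitotic change from proximal to distal was −0.371 when all probe sets of a gene were averaged. When only bases before the start site were searched, E2F letters stood in 1 mitotic and 5 of 13 S phase promoters (38.5%), against 3.24% of all windows, and CHR letters in 9 of 16 mitotic promoters (56.2%), against 17.1% of all windows. With no replicate block for the pools, 32 genes were higher and 1 lower for middle against proximal, 6 and 0 for distal against middle, and 36 and 3 for distal against proximal. Pcna was the added lower gene (adjusted p = 0.0377), and it also passed with median centring, with an intensity trend and robust variance and with a random block for the pools (adjusted p of 0.0318 to 0.0408). With no intensity filter, Birc5, Cdc45 and Mcm4 lost their calls for middle against proximal and Gins2 for distal against proximal (adjusted p = 0.0608).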
